A study of Homo sapiens with 6 samples.

Results

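The glycolysis and hypoxia response genes are a list of 36 genes, chosen by name as enzymes and transporters of glucose breakdown and as genes of the oxygen-sensing pathway and its targets. All 36 were among the 28181 genes of the files, and 35 of them were among the 23040 genes that were tested, whose normalized count averaged 1 or more. They were compared between 3 libraries of UE7T-9 SHC4 (the SHC4 cells) and 3 libraries of UE7T-9 Cont (the controls). UE7T-9 is a human mesenchymal stem cell line of bone marrow origin, immortalized with telomerase reverse transcriptase and the E7 gene of human papillomavirus, and both groups share that background. UE7T-9 SHC4 was infected with a lentivirus that carries SHC4, an adaptor protein of receptor tyrosine kinases, under the CMV promoter with puromycin resistance. UE7T-9 Cont carried a GFP vector according to the methods, while the sample labels call it nontarget and wild type. The series text speaks of clones. The labels number the 3 libraries of a group as biological replicates ("bio rep"). Whether they came from separate infections, clones or cultures is not stated. The p-values thus set a group difference against the spread between these libraries, whatever the source of that spread.

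Glycolysis splits glucose into pyruvate in the cytosol, and lactate dehydrogenase turns pyruvate into lactate when it is not burned in mitochondria. Hypoxia-inducible factors (HIF) are pairs of an alpha subunit (HIF1A or EPAS1) and ARNT. Prolyl hydroxylases of the EGLN family use oxygen to mark the alpha subunit for destruction, so the factors accumulate when oxygen is low and turn on glycolytic enzymes, glucose transporters and genes of acid balance, blood vessel growth and mitophagy. Mesenchymal stem cells of the marrow live in a niche low in oxygen and are known for a high rate of glycolysis. The alpha subunits are regulated largely as proteins, which RNA counts do not show.

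The values are normalized counts, that is, reads per gene divided by 1 size factor per library. SHC4, the overexpressed gene, had normalized counts of 56.5, 157 and 130 in control replicates 1, 2 and 3 and of 134870, 119166 and 155006 in the SHC4 cells, as the labels say. The libraries held 18144993 to 27721397 reads, and 3 reads correspond to a normalized count of 2.50 to 3.53. The summed level of 5 mesenchymal markers (THY1, NT5E, ENG, CD44 and VIM) ranged from 59617 to 67940 in the controls and from 64040 to 73504 in the SHC4 cells. The sums of 4 blood markers (194 to 386), 3 endothelial markers (9.75 to 43.1) and 3 epithelial markers (9.99 to 54.1) stayed low in every library, with CDH5 at 0 in 4 of 6 libraries. Over the tested genes, control replicate 1 resembled the 3 SHC4 libraries (Pearson's r of log2 values 0.968 to 0.974) more than control replicates 2 (0.967) and 3 (0.962). SHC4 replicate 1 was closest to SHC4 replicate 2 (0.978). It was about as close to control replicate 1 (0.9745) as to SHC4 replicate 3 (0.9751). Control replicate 1 thus stood apart from its group, and results that rest on the replicate 1 libraries are given with and without them.

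HIF is known to bind a short core of letters, and some stretches that hold it near the starts of members are shown so that these letters can be read beside the values. The letters ACGTG, and GCGTG as the other form, were searched on both strands in the 250 bases before each RefSeq start (GRCh38.p14). The palindrome CACGTG counts as 2 overlapping matches. A window was found for 33 of the 36 members and not for SLC2A3, BNIP3L and NDRG1. At least 1 match was present for 28 of the 33, and 60.7% of the 61 windows of members held one, beside 43.2% of all 35116 windows. The stretches of 30 bases below run 5′ to 3′ on the strand of the gene, with the matches in capitals. They come from LDHA and ENO1 (high in both replicate 1 libraries), HK2, EPAS1, CA12 and ADM.
LDHA (chr11:18394366-18394395, plus strand): agactcccagcgCACGTGgagcagtctgcc
LDHA (chr11:18394471-18394500, plus strand): actcaCACGTGggttcccgCACGTccgccg
ENO1 (chr1:8878835-8878864, minus strand): cacccccctttcCACGCtactgcagccgtc
ENO1 (chr1:8878741-8878770, minus strand): ggagctgaggggGCGTGccccggaggcggg
HK2 (chr2:74834964-74834993, plus strand): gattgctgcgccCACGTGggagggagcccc
HK2 (chr2:74835009-74835038, plus strand): ttccggcgagagCACGTGgagagaatcgtg
EPAS1 (chr2:46297278-46297307, plus strand): gggcctgccggcGCGTGcccgcccacacac
CA12 (chr15:63382063-63382092, minus strand): gcggatctcaccCACGCctgccagcagctc
ADM (chr11:10304960-10304989, plus strand): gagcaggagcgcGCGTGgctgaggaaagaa
LDHA held 5 matches in the window of its first start, HK2 held 6 in that of its second start, and CA12, ADM and EPAS1 held 1 each. None was found in the window of SLC2A1, PGAM1, PKM, P4HA2 or EGLN3. A match is a description of the letters and not a bound site.

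Most of the 35 tested members had overlapping levels in the SHC4 cells and the controls. Carbonic anhydrase CA12 and the vasodilator peptide gene ADM lay higher in every SHC4 library than in any control, and the glucose transporter SLC2A1 and the pyruvate kinase PKM lay lower. limma with Benjamini-Hochberg adjustment called 0 of 35 members at an adjusted p under 0.05, beside 0.0651% of all genes tested (15 genes), and the smallest adjusted p of a member was 0.180, that of SLC2A1. An unadjusted p under 0.05 was reached by 5 of 35 members (SLC2A1, PGAM1, CA12, ADM and ANGPTL4), beside 14.4% of all genes. DESeq2 on the recovered reads called 1 of the 34 members that received an adjusted p, CA12, beside 4.14% of all genes, and edgeR called 0 of 34, beside 0.0694%. The share of all genes whose groups did not overlap was 9.13% with the SHC4 cells higher (2 members) and 10.2% with the SHC4 cells lower (2 members).

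**Figure D1:**
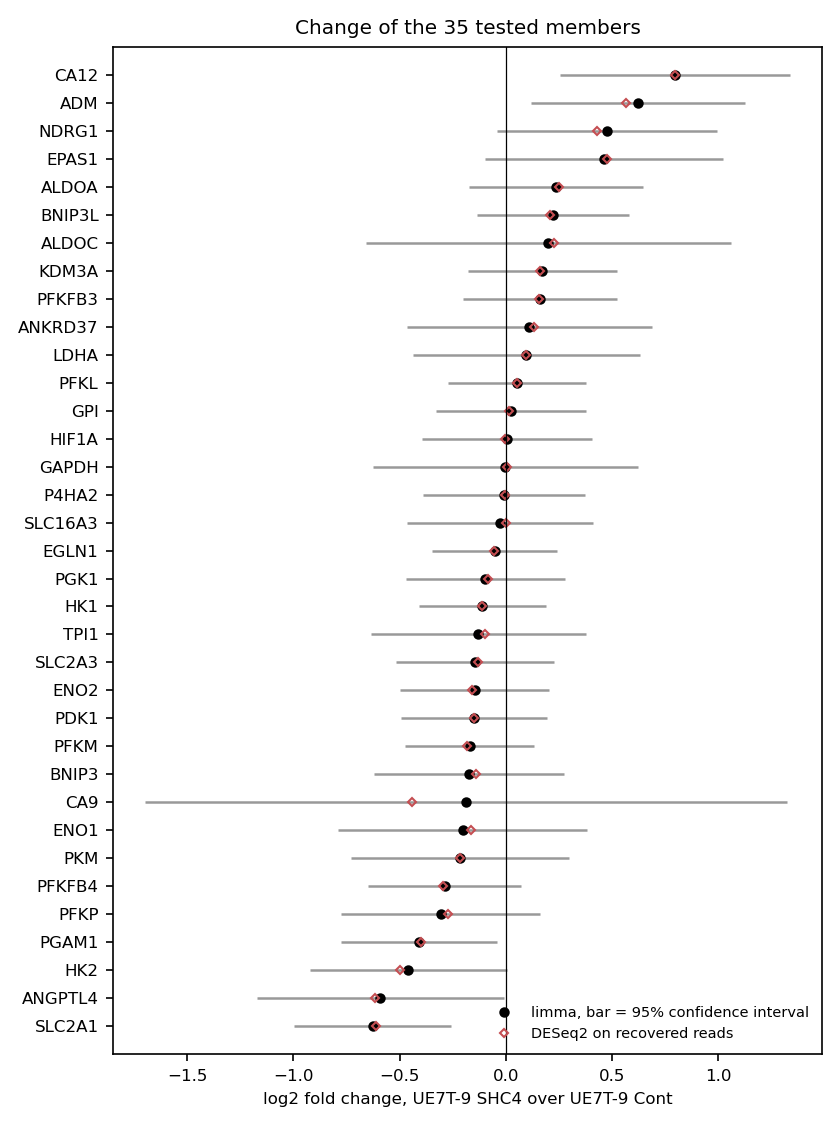
Log2 fold change of UE7T-9 SHC4 over UE7T-9 Cont for the 35 tested members, with black points and 95% confidence intervals from limma and open diamonds from DESeq2 on the recovered reads. The values run from -0.63 (SLC2A1) to 0.80 (CA12), and the intervals of 30 of the 35 members cross 0.

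Most glycolytic members lay lower in the SHC4 cells and most oxygen-sensing members and HIF targets higher, with no member called by limma. Of the 22 members of glycolysis, its transporters and its pyruvate branch, 16 had a lower and 6 a higher mean log2 level in the SHC4 cells, the median log2 fold change being -0.14. Of the 13 tested members of oxygen sensing and the other HIF targets, 8 had a higher and 5 a lower level, with a median of 0.11. Over all genes tested the median was -0.004. With scaling by library size, which moved the median of all genes to -0.10, the glycolytic median was -0.24 (19 of 22 lower) and the other median 0.008 (6 of 13 lower). Control replicate 3 was the lowest library for 8 of these 13 members, beside 20.9% of all genes, and its median deviation from their gene means was -0.38. In limma without control replicate 3, the log2 fold change of HIF1A turned to -0.11. DESeq2 without that library called 0 members, beside 246 of 17014 genes. How far the median of the 13 rests on that library was not tested. Of the 22 glycolytic members, 13 were lowest in SHC4 replicate 2, beside 14.1% of all genes, and its median deviation was -0.26. In limma without that library, SLC2A3 (0.028), SLC16A3 (0.098), TPI1 (0.030), GAPDH (0.14) and PGK1 (0.034) turned to positive log2 fold changes. How far the glycolytic median rests on SHC4 replicate 2 was not tested. The difference between the lists was not tested, and 31 of the 35 members had overlapping groups.

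Transport had the member with the smallest adjusted p. SLC2A1 (GLUT1, ENSG00000117394, chromosome 1 from 42925375 to 42959176 in GENCODE 29 on GRCh38), the basal glucose carrier of most cells, had normalized counts of 1337, 1585 and 1381 in the controls and of 1157, 765 and 897 in the SHC4 cells. The groups did not overlap, and SHC4 replicate 1 was the library nearest to the controls. The means were 1434 ± 132 and 939.7 ± 199.8 (SD, n = 3 each), which is -0.63 as a log2 fold change (standard error 0.16, limma adjusted p = 0.180, DESeq2 adjusted p = 0.0523). The exact permutation test gave a two-sided p of 0.1, the smallest that 3 libraries against 3 allow. SLC2A3 (GLUT3), a carrier of high affinity, had means of 1965 ± 193 and 1796 ± 351 (SD, n = 3 each, log2 fold change -0.15), with its lowest value in SHC4 replicate 2. SLC16A3 (MCT4), which exports lactate, had a log2 fold change of -0.03. It spanned 2987 to 4817 within the SHC4 cells alone, wider than the difference between the groups. In a pool of cells, fewer cells that express a gene and less of its RNA per cell cannot be told apart, here and in all that follows.

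In upper glycolysis, where glucose is phosphorylated and cut into triose phosphates, 5 of 9 members were lower and 4 higher, none was called, and the median log2 fold change was -0.11. HK2, the inducible hexokinase, had normalized counts of 1871, 3104 and 3237 in the controls and of 1919, 1760.5 and 2140.3 in the SHC4 cells (log2 fold change -0.46, standard error 0.21, limma adjusted p = 0.352). Control replicate 1 lay among the SHC4 libraries, while the other two controls were above all of them. HK1, the housekeeping hexokinase, differed little (6782 ± 533 and 6274 ± 309, SD, n = 3 each). Of the phosphofructokinase subunits, which catalyse the committed step, the platelet form PFKP had normalized counts of 2292, 2397 and 2988 in the controls and of 2875, 1765 and 1706 in the SHC4 cells. SHC4 replicate 1 was thus at the level of the controls. The liver form PFKL (log2 fold change 0.05) and the muscle form PFKM (-0.17) had overlapping groups, as had the isomerase GPI (0.02). Aldolase cleaves fructose bisphosphate, and triose phosphate isomerase TPI1 interconverts its products. ALDOA had a log2 fold change of 0.24 at a low count discussed further on, ALDOC 0.20 at a mean of 17.7, and TPI1 -0.13 with a range of 6805 to 11891 among the SHC4 libraries.

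The bifunctional enzymes PFKFB3 and PFKFB4 make and remove fructose-2,6-bisphosphate, the activator of phosphofructokinase. PFKFB3 had normalized counts of 359, 490 and 409 in the controls and of 508, 409 and 486 in the SHC4 cells, and PFKFB4 had 386, 529 and 477 against 420, 348 and 366. Both overlapped between the groups, with log2 fold changes of 0.16 and -0.29 (limma adjusted p = 0.689 and 0.446).

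In lower glycolysis, where ATP and pyruvate are made, 6 of 6 members had negative log2 fold changes, none was called, and their median was -0.17. With TMM scaling 5 of 6 were negative, as GAPDH turned to 0.008. PKM (ENSG00000067225, chromosome 15 from 72199029 to 72231822), which makes pyruvate, had normalized counts of 57068, 61281 and 62054 in the controls and of 55366, 49831 and 50314 in the SHC4 cells. The groups did not overlap, although control replicate 1 and SHC4 replicate 1 lay close (log2 fold change -0.21, standard error 0.23, limma adjusted p = 0.710, exact two-sided p = 0.1). PGAM1, the mutase that moves the phosphate of phosphoglycerate, had 7845, 9134 and 9218 against 7882, 5681 and 6292 (log2 fold change -0.41, standard error 0.16, limma adjusted p = 0.302). Replicate 1 of the 2 groups had nearly the same PGAM1 level, and the other libraries of the groups lay apart. ENO1, the main enolase, had 34488, 26350 and 26558 in the controls and 36139, 20308 and 21597 in the SHC4 cells. GAPDH, which oxidizes glyceraldehyde phosphate, had 63626, 48492 and 43169 in the controls and 66860, 41696 and 47491 in the SHC4 cells. In ENO1 and GAPDH the replicate 1 libraries of both groups were the 2 highest of the 6. PGK1, which makes ATP from bisphosphoglycerate, had a log2 fold change of -0.10, and the second enolase ENO2 had -0.15.

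At the pyruvate branch, LDHA, the lactate dehydrogenase subunit that favours lactate, had normalized counts of 20369, 15943 and 12695 in the controls and of 22157, 14064 and 16164 in the SHC4 cells (log2 fold change 0.10, standard error 0.24). PDK1, the kinase that shuts pyruvate dehydrogenase, had 591 ± 78.6 and 532 ± 64.2 (SD, n = 3 each). Neither differed beyond the spread of its libraries, and LDHA was again highest in the replicate 1 libraries.

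**Figure D2:**
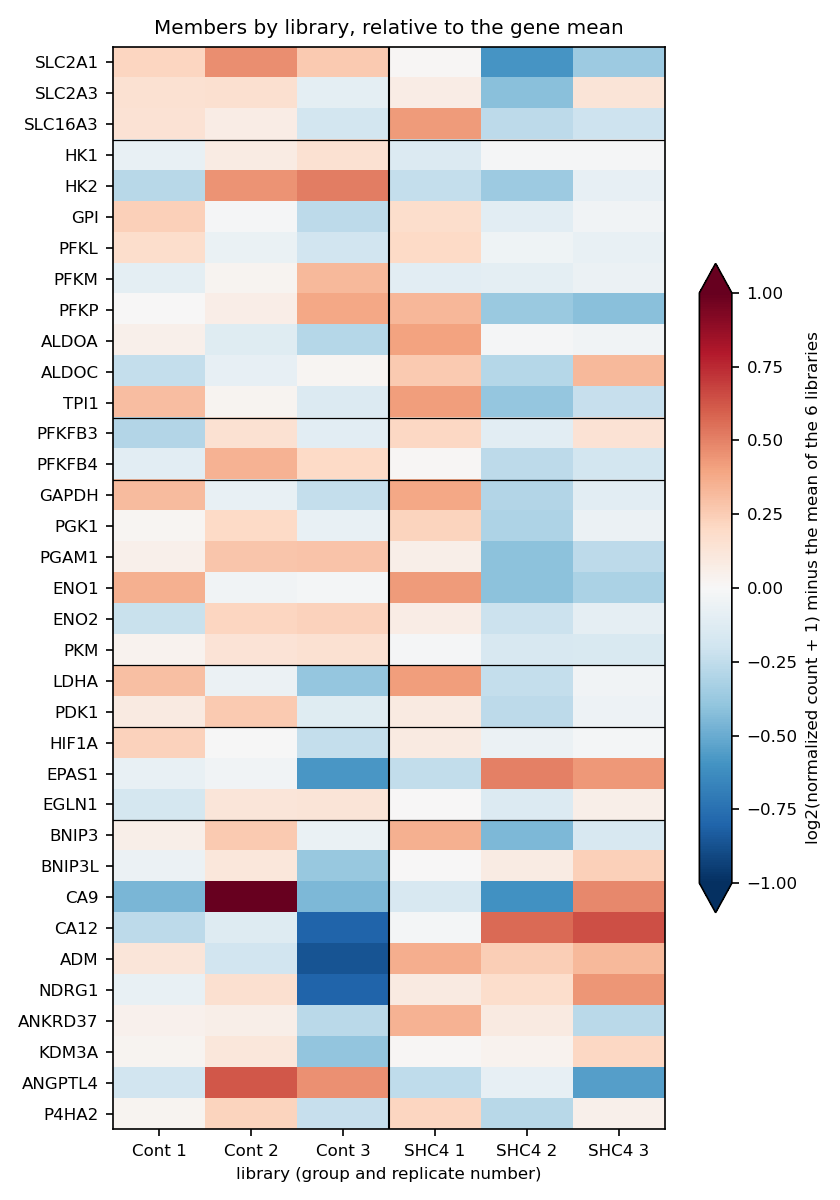
Log2(normalized count + 1) of each of the 35 tested members in each library minus the mean of the gene over the 6 libraries, with red above and blue below the mean and colours cut at 1 in either direction. Horizontal lines separate the roles in the order of the text, from transport to the other HIF targets. TPI1, GAPDH, ENO1 and LDHA are red in both replicate 1 libraries, while CA12, ADM and NDRG1 are dark blue in UE7T-9 Cont replicate 3.

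Several glycolytic enzymes were highest in the replicate 1 libraries of both groups. Both replicate 1 libraries lay above the other 4 in 9 of 35 members, beside 11.9% of all genes tested, and 8 of the 9 belonged to the 22 glycolytic members (SLC16A3, GPI, PFKL, ALDOA, TPI1, GAPDH, ENO1 and LDHA). The ninth was HIF1A. Both lay below the other 4 in 2 members, HK1 and PFKM, beside 11.3% of all genes. SHC4 replicate 2 was the lowest library for 13 of the 22 glycolytic members, beside 14.1% of all genes, and control replicate 3 was the lowest for 8 of the 13 oxygen-sensing members and HIF targets, beside 20.9% of all genes. The members together took between 1.09% (SHC4 replicate 2) and 1.33% (SHC4 replicate 1) of the reads of a library. Of the mesenchymal markers, ENG and VIM also had both replicate 1 libraries above the other 4, while THY1, NT5E and CD44 did not. THY1 had 7742, 2940 and 2286 in the controls against 7845, 9570 and 7512 in the SHC4 cells, so that control replicate 1 lay with the SHC4 libraries. The part of such differences between libraries in the members' levels was not tested.

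Within families of isozymes, the share of a gene in the family sum, per kilobase of exon, is not affected by the size factor of the library. Of 10 families and 12 shares compared, 2 did not overlap between the groups. Among the levels of all genes tested, 9.13% did not overlap with the SHC4 cells higher and 10.2% with the SHC4 cells lower. PFKFB3 took 48.1%, 48.1% and 46.1% of the PFKFB3 and PFKFB4 sum in the controls and 54.7%, 54.0% and 57.0% in the SHC4 cells. Every SHC4 library thus had more PFKFB3 than PFKFB4, and every control the reverse, a difference of 7.79 percentage points between means of 47.4 ± 1.13% and 55.2 ± 1.58% (SD, n = 3 each). SLC2A1 took 45.7%, 49.8% and 50.8% of the SLC2A1 and SLC2A3 sum in the controls and 43.5%, 41.7% and 36.5% in the SHC4 cells. For both shares the exact permutation test gave a two-sided p of 0.1, its smallest value with 3 libraries against 3 (0.514 after Benjamini-Hochberg adjustment over the 12 shares). HK2 took 29.1 ± 4.57% of the hexokinase sum in the controls and 24.3 ± 1.94% in the SHC4 cells (SD, n = 3 each), and control replicate 1 (23.8%) lay among the SHC4 libraries. PFKP took 44.1 ± 4.11% and 39.5 ± 5.38% of the phosphofructokinase sum, and ENO2 9.26 ± 2.54% and 9.46 ± 1.81% of the enolase sum (SD, n = 3 each), with overlapping groups.

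**Figure D3:**
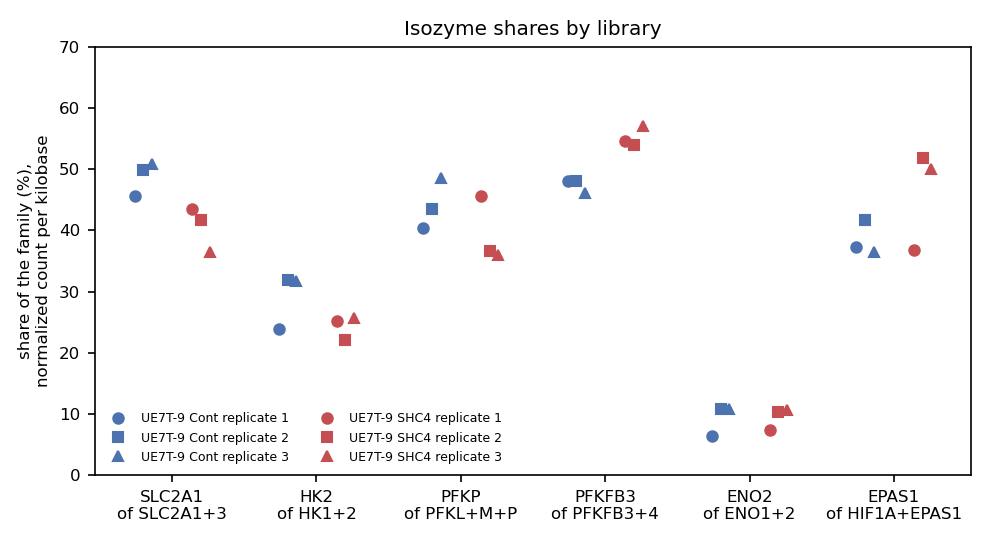
Share of 1 gene in its isozyme family (percent of the summed normalized counts per kilobase of exon) for 6 families, with UE7T-9 Cont in blue, UE7T-9 SHC4 in red and 1 symbol per replicate number. The PFKFB3 points of UE7T-9 SHC4 lie at 54.0% to 57.0%, all above the controls at 46.1% to 48.1%, and the EPAS1 point of UE7T-9 SHC4 replicate 1 (36.8%) lies with the controls.

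Of the oxygen sensors, HIF1A and EPAS1 were both abundant and differed in their pattern. HIF1A, the widely expressed alpha subunit, had means of 16847 ± 2741 and 16781 ± 883 (SD, n = 3 each), and the 95% confidence interval of its log2 fold change of 0.006 ran from -0.40 to 0.41 in limma. EPAS1 (HIF-2 alpha, ENSG00000116016, chromosome 2 from 46293667 to 46386703), which is restricted to fewer cell types, had 16535, 16921 and 11592 in the controls and 14659, 24570.2 and 23463 in the SHC4 cells. SHC4 replicates 2 and 3 were above all controls and replicate 1 lay within their range (log2 fold change 0.46, standard error 0.25, limma adjusted p = 0.435). EPAS1 accordingly took 51.9% and 50.1% of the HIF alpha sum in SHC4 replicates 2 and 3, 36.8% in replicate 1 and 36.5% to 41.7% in the controls. EGLN1, the main oxygen-sensing prolyl hydroxylase, had 1738 ± 201 and 1671 ± 115 (SD, n = 3 each, log2 fold change -0.05). EGLN3, a hydroxylase that HIF itself turns on, was at 2.92 in control replicate 1 and at 0 in the other 5 libraries. That is 3 reads in 1 library, at the limit that a count of 0 allows, so EGLN3 was not tested and no fold is given. The limit from a count of 0 covers counting error only, while the intervals of limma cover the spread between these libraries.

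Of the 10 other HIF targets, 6 had a higher and 4 a lower level in the SHC4 cells (median log2 fold change 0.14). CA12 (ENSG00000074410, chromosome 15 from 63321378 to 63382161), a membrane carbonic anhydrase that balances acid outside the cell, had normalized counts of 10639.8, 11693 and 7328 in the controls and of 12593, 18969.9 and 19965 in the SHC4 cells. All 3 SHC4 libraries were above the controls, replicate 1 by little and replicates 2 and 3 by far. The means were 9887 ± 2278 and 17176 ± 4000 (SD, n = 3 each), which is 0.80 as a log2 fold change (standard error 0.24, limma adjusted p = 0.205). DESeq2 called CA12 (log2 fold change 0.80, adjusted p = 0.0326), while edgeR gave an adjusted p of 0.192, and the exact permutation test gave a two-sided p of 0.1. The DESeq2 call was lost without control replicate 2 (adjusted p = 0.0549) or 3 (0.213) and without SHC4 replicate 2 (0.345) or 3 (0.315).

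ADM (ENSG00000148926, chromosome 11 from 10304680 to 10307397), which encodes adrenomedullin, had 5366, 4317 and 2717 in the controls and 6352, 5858 and 6162 in the SHC4 cells. The groups did not overlap, and the spread was wide in the controls and narrow in the SHC4 cells (4133 ± 1334 and 6124 ± 249, SD, n = 3 each, log2 fold change 0.62, standard error 0.22, limma adjusted p = 0.267). NDRG1, a stress-responsive gene of differentiation, had 2609, 3061 and 1574 against 2921, 3102 and 3733 (log2 fold change 0.48), and control replicate 3 was the lowest of the 6 in CA12, ADM and NDRG1 alike. ANGPTL4, a secreted inhibitor of lipoprotein lipase, went the other way at low counts, with 100.4, 177 and 157 against 95.8, 108 and 78.0 (log2 fold change -0.59, limma adjusted p = 0.338). The mitophagy receptors BNIP3 (log2 fold change -0.17) and BNIP3L (0.22), the histone demethylase KDM3A (0.17), the collagen prolyl hydroxylase subunit P4HA2 (-0.008) and the ankyrin repeat gene ANKRD37 (0.11) overlapped between the groups. CA9, the carbonic anhydrase often used as a marker of hypoxia, stood at 1.95, 8.24 and 1.97 in the controls and 2.64, 1.66 and 4.66 in the SHC4 cells, near the level of 3 reads. CA12 made up at least 99.7% of the sum of CA9 and CA12 per kilobase in every library.

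**Figure D4:**
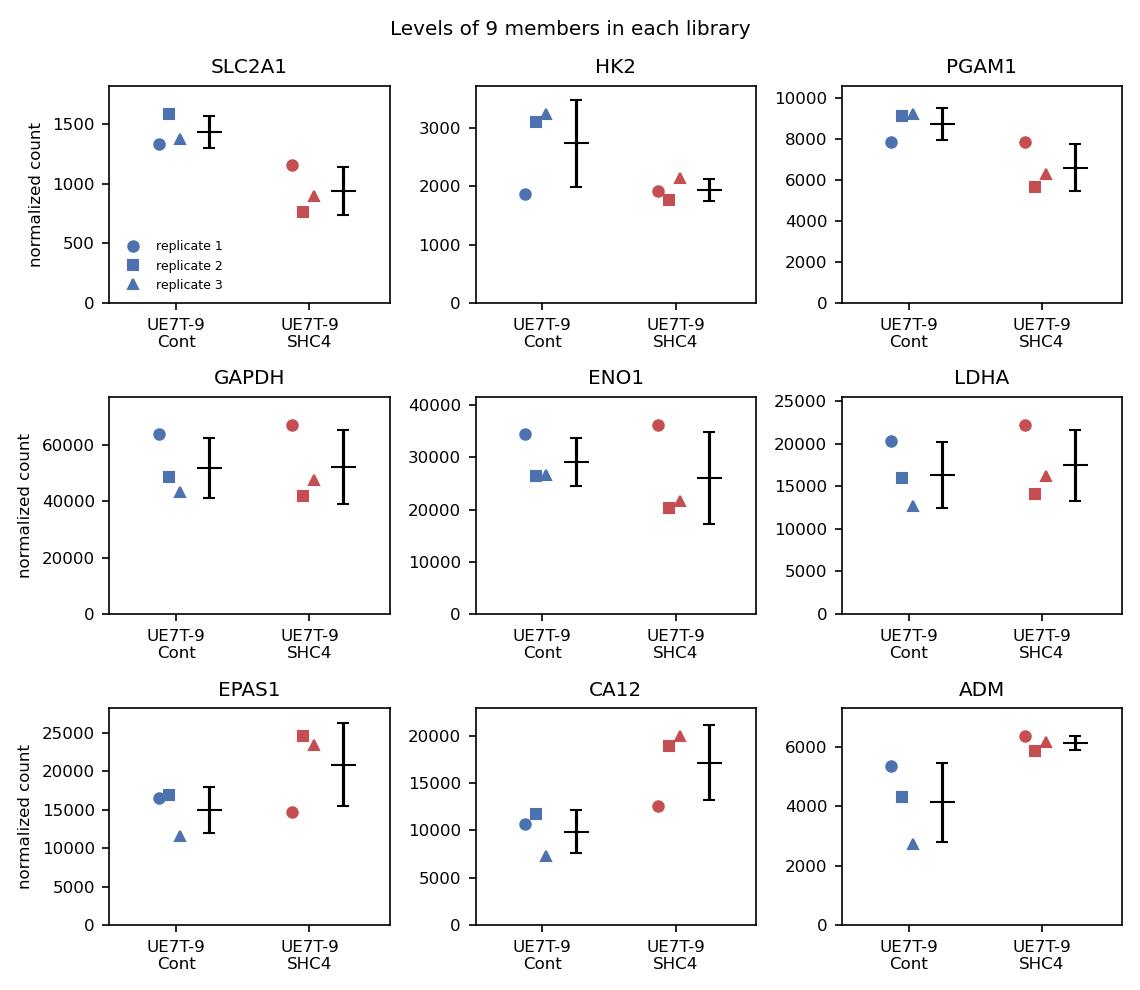
Normalized counts (linear axes from 0) of 9 members in each library, with circles, squares and triangles for replicates 1, 2 and 3 and black bars for the mean and SD of each group. Circles are the highest points of both groups in GAPDH, ENO1 and LDHA, and the circle of UE7T-9 SHC4 is nearest to the controls in SLC2A1, PGAM1 and CA12.

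Without both replicate 1 libraries, a choice made after the data were seen, more members separated. limma on the remaining 2 against 2 libraries called 5 of 35 members, beside 6.47% of all genes. SLC2A1 fell by 0.84 on the log2 scale (limma adjusted p = 0.0207), HK2 by 0.71 (0.0273), PFKP by 0.62 (0.0418) and PGAM1 by 0.62 (0.0283), and CA12 rose by 1.07 (0.0420). DESeq2 called the same 5 and, as higher, EPAS1 and ADM, 7 of 34 members beside 15.1% of all genes. Without control replicate 1 alone, limma called HK2 lower and ADM higher, beside 5.17% of all genes, and DESeq2 called SLC2A1, HK2 and ANGPTL4 lower and CA12 and ADM higher, beside 14.0%. Calls over all genes rose as well when these libraries were left out. GAPDH, LDHA and HIF1A were not called in any of these fits.

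Per kilobase of exon, levels spanned a wide range. The length was that of all annotated exons of a gene together. It can exceed the length of the transcripts expressed, so the ranks depend on the annotation. GAPDH stood first with a mean of 17407 normalized counts per kilobase, followed by PKM (6532), ENO1 (5226), TPI1 (3354), HIF1A (3264), PGAM1 (2989), LDHA (2721), EPAS1 (2459), ADM (1887) and CA12 (1850). By this measure HIF1A and EPAS1 stood among the glycolytic enzymes, above hexokinase (1037 for HK1 and 386 for HK2). At the low end were PDK1 (37.7), ANKRD37 (27.0), ALDOC (6.04), CA9 (2.11) and EGLN3 (0.066). TPI1 and HIF1A, and ADM and CA12, are neighbours whose ranges over the libraries overlapped.

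Some counts are uncertain where genes overlap or have near copies. ALDOA, the muscle-type aldolase, had only 195 to 315 normalized counts per library, and 93.8% of its coding bases lie also in AC093512.2, an overlapping gene on the same strand with 55.1 to 97.6 counts. How reads of overlapping genes were counted, and with which strand setting, is not given in the sources used here, so the level of ALDOA is uncertain and the cause of its low count was not tested. On the opposite strand, 38.5% of the exon bases of CA9 overlap ARHGEF39 and 35.2% of those of ANKRD37 overlap UFSP2. GAPDH has 62 pseudogenes named after it in GENCODE 29, of which 10 were in the files with 0.388% of the GAPDH count, and those of BNIP3 and TPI1 held 1.36% and 1.58% of the count of their gene.

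Of 91 further genes of the same pathways, listed by role, 87 were in the files and 83 were tested. limma called 0 of the 83, beside 0.0651% of all genes, and 13 had an unadjusted p under 0.05, beside 14.4%. edgeR called 0 of 79, beside 0.0694%. DESeq2 called 3 of 79, beside 4.14% of all genes, and all 3 were further HIF targets. These shares lay near those over all genes. PLOD2, a collagen lysyl hydroxylase, had normalized counts of 8496, 10302 and 11831 in the controls and of 6509, 4297 and 5239 in the SHC4 cells (DESeq2 log2 fold change -0.93, adjusted p = 0.00102). STC2, the secreted stanniocalcin-2, had 9067, 12713 and 10247 against 15844, 18731 and 16263 (0.67, DESeq2 adjusted p = 0.00958). IGFBP3, a carrier of insulin-like growth factors, had 32056, 22726 and 13546 against 42503, 54695 and 38931 (0.99, DESeq2 adjusted p = 0.0239). Left out in turn, some libraries ended these DESeq2 calls. The adjusted p of PLOD2 was 0.0527 without SHC4 replicate 2. That of STC2 was 0.0961 without control replicate 3, 0.237 without SHC4 replicate 2 and 0.0955 without SHC4 replicate 3. That of IGFBP3 was 0.155 and 0.0899 without control replicates 2 and 3, and 0.336 and 0.0881 without SHC4 replicates 2 and 3 (DESeq2 in each case). With all libraries kept, these HIF targets moved in opposite directions, and VEGFA, the classic HIF target of vessel growth, had 5215 ± 1211 and 5036 ± 506 (SD, n = 3 each, log2 fold change -0.03). Of 28 further HIF targets, 15 were higher and 13 lower (median log2 fold change 0.05).

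The other lists had no gene called by limma, DESeq2 or edgeR with all libraries kept and no replicate block. With the replicate number as a block, DESeq2 called 5.22% of all genes, and from these lists it called PGM2 lower (adjusted p = 0.0404). Without control replicate 1, limma called 5.17% of all genes, and from these lists it called HKDC1, PGM2 and PDHX lower (limma adjusted p = 0.0312, 0.0139 and 0.0149). DESeq2 without that library called 14.0% of all genes. From these lists it called HKDC1, PGM2, PDHX and ELOC lower and ARNT2 higher (DESeq2 adjusted p = 0.0329 for ELOC and 0.0125 for ARNT2). Without both replicate 1 libraries, limma called 6.47% and DESeq2 15.1% of all genes. Both then called HKDC1, PGM2, PDHX and ELOC lower and PC higher (adjusted p of PC 0.0266 in limma and 0.00618 in DESeq2). DESeq2 without SHC4 replicate 1 called 848 of 16021 genes, among them PC as higher (DESeq2 adjusted p = 0.0213). Of 14 other glycolysis and gluconeogenesis genes, 9 were lower and 5 higher (median log2 fold change -0.08). Among them, the hexokinase HKDC1 had a log2 fold change of -1.03 and the phosphoglucomutase PGM2 one of -0.68. Of 16 other pyruvate and lactate genes, 12 were lower (median -0.11), with the pyruvate dehydrogenase subunit PDHX at -0.56, the kinase PDK4 at -0.45 and pyruvate carboxylase PC at 0.40. Of 7 pentose phosphate genes 4 were higher (median 0.03), with PGLS at 0.30, TALDO1 at -0.29 and RPIA at 0.18. Of 6 other glucose transporters 4 were lower (median -0.20), with SLC2A4 at -0.77 on 9.75 counts or fewer, SLC2A8 at -0.58 and SLC2A10 at 0.44. Without control replicate 1 the log2 fold change of SLC2A4 was -0.21 and that of SLC2A8 -0.87, and without control replicate 3 they were -1.43 and -0.27. That of PGLS was 0.17 without control replicate 3, and that of RPIA 0.09 without SHC4 replicate 1. PDK4 ran from -0.82 without control replicate 1 to 0.03 without SHC4 replicate 1. SLC2A10 lay higher in all 3 SHC4 libraries (1551 ± 112) than in the controls (1147 ± 83.8, SD, n = 3 each). Of 12 other oxygen sensing genes 6 were higher and 6 lower (median 0.01), with the HIF partner ARNT2 at 0.92, the prolyl hydroxylase EGLN2 at 0.70 and the elongin subunit ELOC at -0.30. ARNT2 stood at 1728, 1404 and 514 in the controls and at 1919, 2110.1 and 2093 in the SHC4 cells, and without control replicate 3 its log2 fold change was 0.39. That library was also the lowest in ADM, CA12 and NDRG1. The coding bases of EGLN2 lie 93.4% within the read-through gene RAB4B-EGLN2, and its level is uncertain. PGAM2, PCK1 and MIF were among the genes not analysed here.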

How the data were processed

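The authors sequenced RNA of 6 samples (NovaSeq), 3 with SHC4 overexpression and 3 controls, and the labels gave each sample its group and replicate number. The deposited signal is the authors' normalized count, for which the reads of a gene had been divided by the size factor of the library. The submitters' processing notes name HISAT2 2.0.5, featureCounts 1.5.0-p3 and DESeq2, without roles. The genome build, annotation and strand setting are not given in the sources used here. All 28181 identifiers were in GENCODE 29, which gave symbols, positions and exon lengths. Whole reads were recovered for 100% of values (tolerance 0.01 reads).

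The main test was limma 3.58.1 (R 4.3.3, eBayes with trend) on log2(normalized count + 1). Genes averaging at least 1 were fitted, p-values were adjusted by Benjamini-Hochberg over all of them, and calls were made at an adjusted p under 0.05. A fold change on this scale is understated for low counts. DESeq2 1.42.0 and edgeR 4.0.16 (quasi-likelihood) on the recovered reads, other scalings (library size, TMM), filters and pseudocounts, a replicate block and leaving out libraries were alternatives. The tests were checked on simulated counts. Depth was 18144993 to 27721397 reads per library.

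The members and lists were chosen with earlier results of these data known. All 36 members are described, and values in every library are given for members called by any test, with groups that do not overlap and an absolute log2 fold change of at least 0.5, or with a highest library at least 3 times the lowest. Values in every library for other members were added after they were seen. Of the other lists, genes called by any test are named, or else up to 3 genes with the largest change, and VEGFA. A gene that this rule would name is not reported here. THY1 was named as a marker of the cell type. Sequences are from RefSeq (GRCh38.p14). The scratch, MTS and bone experiments of the study were not used here.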

Additional observations from a re-analysis of the deposited data

How the results depend on the processing

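limma called 0 members higher and 0 lower, and the same counts came from edgeR and from limma with library size or TMM scaling, no filter on low counts, a mean of at least 10, a pseudocount of 0.1, a fold threshold or the replicate block. DESeq2 on the recovered reads called 1 member higher and 0 lower, and among the other pathway genes 2 higher and 1 lower. The replicate numbers were not taken as pairs, since the correlation across genes between libraries of equal number, each relative to its group mean, was 0.148 for number 1, 0.013 for number 2 and -0.0070 for number 3. With the number as a replicate block, DESeq2 called 2 members higher (CA12 and ADM) and 1 lower (SLC2A1), and 2 other pathway genes higher and 3 lower, beside 5.22% of all genes. The DESeq2 block, the fits without both replicate 1 libraries and the DESeq2 fits without 1 library were chosen after the data were seen. Without both replicate 1 libraries, limma called 1 member higher and 4 lower and 4 other pathway genes higher and 8 lower, beside 6.47% of all genes. DESeq2 without them called 3 members higher and 4 lower and 6 other genes higher and 10 lower, beside 15.1%. PFKFB3 then had a log2 fold change of -0.0071 in limma and -0.0058 in DESeq2. With 1 library left out in turn, which leaves 2 against 3, limma called 0 to 1 members higher and 0 to 1 lower. Of the other pathway genes it called 0 to 2 higher and 0 to 4 lower. The highest of these counts were those without control replicate 1. Over all 23040 genes, these limma fits called 2 genes (without SHC4 replicate 2 or 3) to 1191 (without control replicate 1). DESeq2 called 0 to 2 members higher and 0 to 3 lower, and 0 to 5 other genes higher and 0 to 7 lower. Over all genes, these DESeq2 fits ranged from 129 of 15436 called (without SHC4 replicate 2) to 2244 of 16015 (without control replicate 1). The median log2 fold change of the members was -0.05, and it ranged from -0.17 without both replicate 1 libraries to 0.04 without SHC4 replicate 2. Of 593 values of single members under alternatives, 553 kept their direction and 40 turned, in 15 members whose log2 fold change was at most 0.187 in size. With all libraries kept, SLC16A3 turned to 0.0015 in DESeq2 and 0.0062 in edgeR, GAPDH to 0.0071 in DESeq2, 0.011 in edgeR and 0.0080 with TMM, HIF1A to -0.0056 in DESeq2, -0.0016 in edgeR and -0.097 with library size scaling, P4HA2 to 0.0029 with TMM, and GPI to -0.078, PFKL to -0.050 and LDHA to -0.0068 with library size scaling. Over the fits that left out 1 library, the log2 fold change ranged from -0.25 to 0.028 for SLC2A3, -0.25 to 0.098 for SLC16A3, -0.10 to 0.15 for GPI, -0.033 to 0.15 for PFKL, -0.37 to 0.030 for TPI1, -0.20 to 0.16 for GAPDH, -0.23 to 0.034 for PGK1, -0.089 to 0.27 for LDHA, -0.11 to 0.12 for HIF1A, -0.15 to 0.0044 for EGLN1, -0.39 to 0.0083 for BNIP3, -0.47 to 0.36 for CA9, -0.036 to 0.27 for ANKRD37, -0.13 to 0.13 for P4HA2, -0.82 to 0.030 for PDK4 and -0.23 to 0.12 for VEGFA. The difference in the share of ALDOC ranged from -1.29 to 0.73 percentage points and that of ENO2 from -1.28 to 1.24. The cause of these changes was not tested. Precision is limited by 3 libraries per group, and CA9 and EGLN3 are at the limit of detection.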
